A study of Mus musculus with 10 samples.

Results

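The genes described here are p53 and 9 genes that p53 is known to switch on: Mdm2, Ccng1, Bax, Bbc3, Pmaip1, Phlda3, Perp, Zmat3 and Aen. A gene was taken by every probe set that carried its symbol and no other. This found 15 probe sets of 8 of the 10 genes, out of 18193 genes in all. Trp53, which encodes p53, and Bax had no such probe set in the table and are not analysed here, so the level of p53's own transcript is not given. Mdm2 had 3 probe sets, Ccng1 had 3, Aen had 4, and the other 5 genes had 1 each. The values below are of the gene's brightest probe set over all 10 arrays unless another is named.

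The study asked what MED23, a subunit of Mediator, the complex through which transcription factors act on RNA polymerase II, does in cells that can become smooth muscle or fat. RNA was read on 10 Affymetrix mouse arrays, with 1 array for each condition. On 6 arrays were mouse embryonic fibroblasts (MEFs) from 9.5-day embryos, wild type (WT) or Med23 knockout (KO), without serum (0 min) or after 30 or 90 min of serum. All of these MEFs had immortalised on their own in culture. On 4 arrays was 10T1/2, an established mesenchymal line from a mouse embryo. It was left untreated as the control, overexpressed MAL (a coactivator of serum response factor), had Med23 knocked down, or had both treatments. The labels do not say how many lines of each genotype were made, nor how the knockdown and the overexpression were done. With 1 line or many, a difference between genotypes and a difference between cultures cannot be told apart. Spontaneous immortalisation of MEFs is known to go with loss of p53 or of the Cdkn2a locus, and the labels give the p53 status of neither genotype nor of 10T1/2.

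p53 is a transcription factor that is kept scarce by MDM2, a ubiquitin ligase that marks it for destruction. DNA damage, oncogene signals or disturbed ribosome assembly free p53 from MDM2, and it then raises genes that stop the cell cycle, repair DNA or kill the cell. Mdm2 is itself a target, which closes a negative feedback loop. In fibroblasts this pathway is best known for cell cycle arrest, and for the arrest that ends the growth of cultured primary cells. Many of its targets also respond to other factors, so a target's level is no measure of p53 by itself.

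p53 binds pairs of a 10-base half-site. RefSeq promoter windows of the mouse build GRCm38.p6 were read here for 5 of the 8 measured genes. Each window was 300 bases, from 250 before to 50 after a transcription start. No window of Perp, Pmaip1 or Zmat3 is reported, so nothing is said of their promoters. The half-site was searched as 3 purines, C, 2 bases that are A or T, G and 3 pyrimidines, a pattern that reads the same on both strands. It occurred in the windows of Mdm2, Ccng1 and Aen, and in 8.36% of all 32851 windows. The window of Phlda3 and the 3 windows of Bbc3 held none. For Mdm2, Ccng1 and Aen a window with a match is shown, with the half-site in capitals. These windows were chosen for the match and not for the results below.
Mdm2: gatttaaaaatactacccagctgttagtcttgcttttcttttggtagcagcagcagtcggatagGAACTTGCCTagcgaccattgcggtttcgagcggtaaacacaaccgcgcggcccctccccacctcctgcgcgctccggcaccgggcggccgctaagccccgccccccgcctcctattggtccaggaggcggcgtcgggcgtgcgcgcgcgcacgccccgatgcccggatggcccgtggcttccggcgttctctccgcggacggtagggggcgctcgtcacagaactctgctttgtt
Ccng1: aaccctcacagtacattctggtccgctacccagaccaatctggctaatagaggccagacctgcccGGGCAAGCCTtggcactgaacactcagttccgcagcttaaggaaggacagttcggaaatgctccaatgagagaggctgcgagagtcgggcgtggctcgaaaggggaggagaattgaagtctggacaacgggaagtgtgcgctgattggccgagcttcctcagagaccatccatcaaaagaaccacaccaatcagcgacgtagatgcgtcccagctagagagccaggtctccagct
Aen: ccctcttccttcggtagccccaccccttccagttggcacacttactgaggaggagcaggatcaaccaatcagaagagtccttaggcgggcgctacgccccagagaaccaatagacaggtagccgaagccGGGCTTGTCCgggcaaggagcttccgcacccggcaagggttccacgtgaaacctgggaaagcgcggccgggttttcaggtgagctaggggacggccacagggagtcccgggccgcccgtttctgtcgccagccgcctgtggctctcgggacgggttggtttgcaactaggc
The Mdm2 window is chr10:117710709-117711008 on the minus strand, and its match GAACTTGCCT begins 186 bases before the start. That of Ccng1 is chr11:40755237-40755536 on the minus strand, with GGGCAAGCCT beginning 185 bases before the start. The Aen window is chr7:78895808-78896107 on the plus strand, with GGGCTTGTCC beginning 121 bases before that start. Aen has a second annotated start upstream, in the window chr7:78895677-78895976, which holds the same match 10 bases past the start. A match of these letters is a description of the sequence and does not show that p53 binds there.

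Values are log2 expression values, so a difference of 1 is 2-fold. The median of all probe sets on an array was between 3.64 and 3.93, and levels below it are treated as open, because no call of detection was used. At 0 min in WT MEFs the 8 genes lay between 4.08 for Pmaip1 and 9.09 for Ccng1. On the untreated 10T1/2 array they lay between 2.63 for Pmaip1 and 11.52 for Phlda3. Levels of different genes are not compared, since each probe set has its own response.

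**Figure D1:**
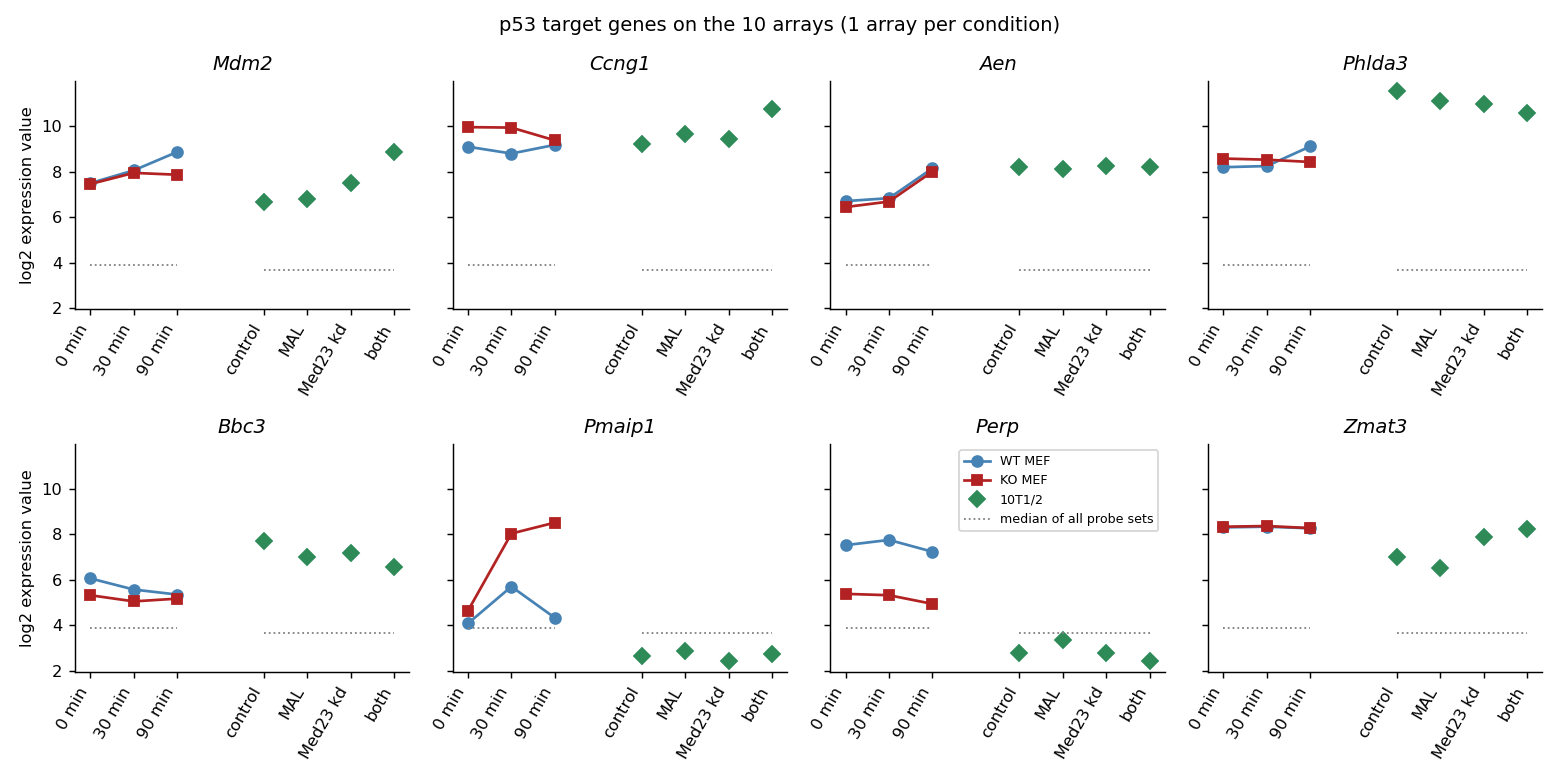
The log2 expression value (vertical axis) of the representative probe set of each of the 8 genes on each of the 10 arrays (horizontal axis), with WT MEFs as blue circles, KO MEFs as red squares and 10T1/2 cells as green diamonds. Dotted lines are the mean array medians of all probe sets. Perp lies lower in KO than in WT at every serum time, Pmaip1 reaches 8.51 in KO at 90 min, and Perp and Pmaip1 lie below the medians on all 4 arrays of 10T1/2 cells.

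Med23 itself was read first, as a check of the labels. It was at 7.14, 7.39 and 6.90 in WT and 3.30, 3.30 and 2.91 in KO, while on the 10T1/2 arrays it was at 5.45 and 5.67 without and 4.24 and 3.94 with the knockdown. Of 12 fibroblast markers, 9 were above the array median on every MEF array and 10 on every 10T1/2 array. Thy1 and Lum were below it on all MEF arrays, and Fap on all 10. Of 12 epithelial markers, 2 in WT, 1 in KO and 1 in 10T1/2 were above the median on every array, and Cdh1, Krt8, Krt18 and Dsp were below it on all 10. The mean of the epithelial list ran from 3.60 to 3.86 in WT and from 3.52 to 3.55 in KO, and that of 5 macrophage genes from 4.70 to 4.95 in WT and from 3.97 to 4.01 in KO. Of these 5, Ptprc and Adgre1 were below the median on all 10 arrays, and Cd14 was between 8.13 and 9.28 in WT and between 6.13 and 6.25 in KO. The 4 neural genes had list means from 6.39 to 6.84 in WT and from 5.03 to 5.15 in KO. Sox2 among them read 8.33, 7.61 and 9.11 in WT and was below the median on the other 7 arrays (at least 22-fold lower in KO, adjusted p = 5.85e-05), while Tubb3 was below it on all 6 MEF arrays. The 5 endothelial genes had list means from 3.19 to 3.31 in WT and from 3.55 to 3.72 in KO. Pecam1, Cdh5 and Tek were below the median on all 10 arrays, and Emcn was above it in KO only (at least 2.45-fold higher, adjusted p = 5.65e-05). The 4 skeletal muscle genes had list means from 3.75 to 3.93 in WT and from 3.64 to 3.79 in KO. The fibroblast list ran from 9.65 to 10.00 in WT and from 9.54 to 9.95 in KO, with Col1a2 higher by 3.89 in KO (adjusted p = 1.7e-05). The part of these markers in the results was not tested.

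In MEFs without Med23, p53 targets did not move one way. Perp, a membrane protein of desmosomes and an effector of apoptosis, and Bbc3, which encodes the killer protein PUMA, were lower in KO. Pmaip1, which encodes NOXA, another killer protein of the BCL2 family, and Ccng1, which encodes cyclin G1, were higher. Mdm2, Aen, Phlda3 and Zmat3 did not pass the test. The test was limma on the 6 MEF arrays with genotype and serum time as additive terms, at an adjusted p under 0.05 over all 11933 genes. Thus 2 of 8 were higher and 2 lower, where 42.1% of all genes tested passed, 21.2% higher and 20.8% lower, so the count for these genes is near the background. The median coefficient of the 8 genes was -0.10, and that of all genes -0.02. Because each condition has 1 array, the p-values rest on how well the serum response of both genotypes runs in parallel, and not on repeated cultures. In RNA of a whole culture, fewer cells of a kind and less RNA per cell cannot be told apart.

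Among the regulators and cell cycle genes, Mdm2 was nearly equal in both genotypes until 90 min. Its values were 7.49, 8.05 and 8.86 in WT at 0, 30 and 90 min, and 7.45, 7.94 and 7.86 in KO. The genotypes overlapped, and only the 90 min pair differed by 1.0, with WT higher. The coefficient, KO minus WT, was -0.38 (SE 0.21, adjusted p = 0.198), and a second probe set, 1427718_a_at, gave -0.39. The third, 1457929_at, was below the array median on all 10 arrays, so its level is open.

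Ccng1 was among the higher genes. It encodes cyclin G1, which recruits a phosphatase to MDM2 and so takes part in the feedback on p53. It read 9.09, 8.79 and 9.17 in WT and 9.95, 9.93 and 9.37 in KO. All 3 KO values were above all 3 WT values, least so at 90 min, where the pair differed by 0.20 against 0.86 and 1.14 before. The mean over the serum times was 9.02 ± 0.20 (SD, n = 3) in WT and 9.75 ± 0.33 (SD, n = 3) in KO, with a coefficient of 0.73 (SE 0.20, adjusted p = 0.0274), or 1.66-fold. The call was lost without the 0 min pair (adjusted p = 0.145) or the 30 min pair (adjusted p = 0.178). Both other probe sets showed the same difference more evenly. On 1450016_at the pairs differed by 1.07, 0.87 and 0.74, and on 1450017_at by 0.94, 0.73 and 0.56. Fitted with every probe set on its own, they gave 0.89 (adjusted p = 0.00386) and 0.74 (adjusted p = 0.00834).

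**Figure D2:**
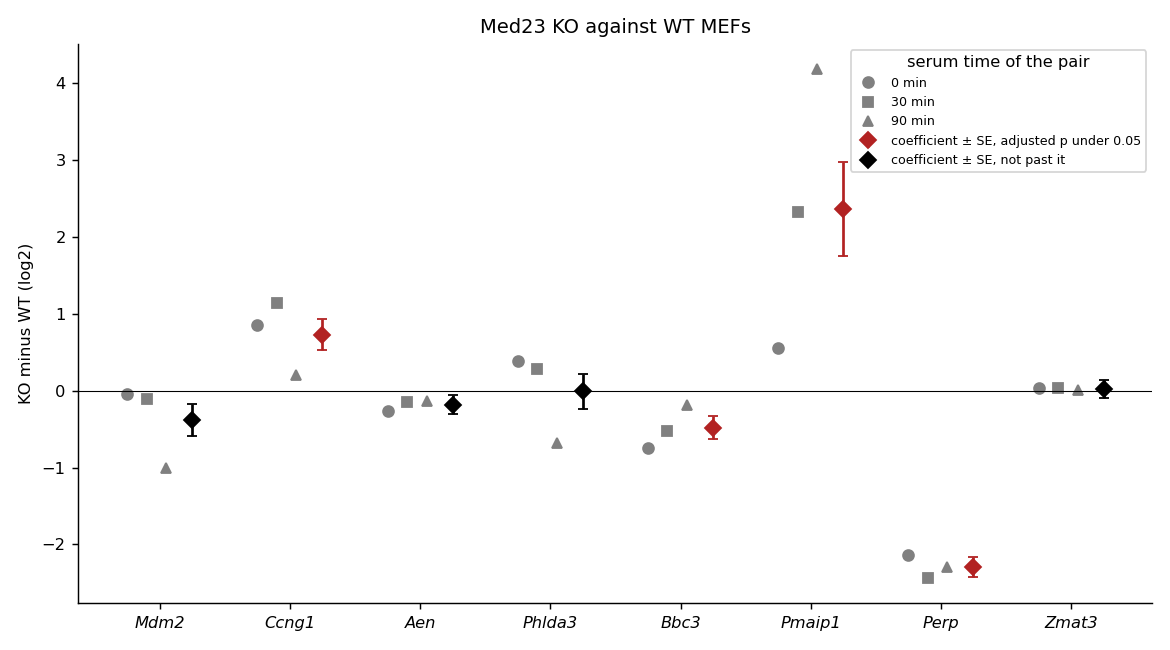
KO minus WT on the log2 scale (vertical axis) for the 8 genes (horizontal axis), with grey symbols for the pairs of single arrays at 0, 30 and 90 min of serum and diamonds for the limma coefficient with its SE. Red diamonds mark an adjusted p under 0.05. The pairs of Perp lie between -2.43 and -2.14, those of Pmaip1 spread from 0.56 to 4.18, and those of Zmat3 lie within 0.03 of 0.

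Aen encodes a nuclease that enhances apoptosis. It moved with serum far more than with genotype, and its pairs differed by -0.26, -0.15 and -0.14 (coefficient -0.18, SE 0.12, adjusted p = 0.273). Phlda3, a repressor of the kinase AKT, lay on different sides over the time course. It was 0.38 and 0.28 higher in KO at 0 and 30 min and 0.68 lower at 90 min, for a coefficient of -0.01 (SE 0.23, adjusted p = 0.988).

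The killer genes Bbc3 and Pmaip1 differed in opposite directions. Both encode BH3-only proteins, which neutralise the survival proteins of the BCL2 family. Bbc3 read 6.06, 5.57 and 5.35 in WT and 5.32, 5.05 and 5.17 in KO. Every KO value was below every WT value, but WT had come down to within 0.18 of KO by 90 min. The coefficient was -0.48 (SE 0.15, adjusted p = 0.0448), or 1.39-fold lower. This call was the least firm of the 4. It was lost without the 0 min pair (adjusted p = 0.271) or the 30 min pair (adjusted p = 0.2), with an intensity trend of the prior variance (adjusted p = 0.0617), without the serum term (adjusted p = 0.154) and with every probe set on its own (adjusted p = 0.0526).

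Pmaip1 read 4.08, 5.70 and 4.33 in WT and 4.64, 8.03 and 8.51 in KO. At 0 min the genotypes were 0.56 apart, and the 0 min KO value lay within the WT range. After serum the gap widened to 2.33 at 30 min and 4.18 at 90 min, the last an 18.1-fold difference between 2 single arrays. The additive coefficient was 2.36 (SE 0.61, adjusted p = 0.0232), or 5.12-fold, and is a mean over pairs that differ 0.56 to 4.18. It was lost without the 30 min pair (adjusted p = 0.133), without the 90 min pair (1.45, adjusted p = 0.0882) and without the serum term (adjusted p = 0.143).

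Perp showed the firmest difference of the 8 genes. It read 7.52, 7.75 and 7.23 in WT and 5.38, 5.32 and 4.94 in KO. The groups did not come near each other at any serum time, and the 3 pairs differed by -2.14, -2.43 and -2.29. The means were 7.50 ± 0.26 (SD, n = 3) in WT and 5.21 ± 0.24 (SD, n = 3) in KO, and the coefficient was -2.29 (SE 0.13, adjusted p = 6.96e-05), or 4.88-fold lower. The call held under every alternative run, with a highest adjusted p of 0.00466 without the 30 min pair. Perp sits in desmosomes, and Pkp1, which encodes a plaque protein of desmosomes and was listed as an epithelial marker, was lower with it. Pkp1 read 5.63, 5.96 and 7.50 in WT and 3.99, 3.67 and 4.07 in KO (coefficient -2.45, SE 0.32, adjusted p = 0.0019). Dsp and Dsg2, the other desmosome genes of that list, were below the array median on all 10 arrays, so they show no such difference. The keratins Krt5, Krt8, Krt14, Krt18 and Krt19 read between 2.78 and 4.14 in both genotypes.

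Zmat3, which encodes a zinc finger protein that binds RNA, hardly varied among the MEFs. It read 8.30, 8.33 and 8.26 in WT and 8.33, 8.36 and 8.27 in KO, so all 6 values lay between 8.26 and 8.36. The coefficient was 0.02 (SE 0.12, adjusted p = 0.896).

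Aen rose after 90 min of serum, by like amounts in both genotypes on its brightest probe set, and was the 1 gene of the set that passed. The comparisons of 30 and of 90 min share the 0 min arrays and are given side by side. At 30 min none of the 8 genes passed by limma, where 0.251% of all genes did, that is 30 genes, 0.235% higher and 0.0168% lower. At an unadjusted p under 0.05 there were 954 genes, 1 of them from this set. At 90 min the 1 call was Aen, where 13.5% of all genes did, 4.56% higher and 8.95% lower. The median coefficient at 90 min was 0.16 for the 8 genes and -0.11 for all genes.

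Aen read 6.70 and 6.83 at 0 and 30 min and 8.14 at 90 min in WT, and 6.44, 6.68 and 8.00 in KO. The 90 min values stood above all others, and the step was alike in both genotypes, 1.44 in WT and 1.56 in KO. The coefficient was 1.50 (SE 0.15, adjusted p = 0.00583), or 2.83-fold. It kept its size without WT at 0 min (1.56) or 30 min (1.50) and without KO at 0 min (1.44) or 30 min (1.50). In these fits the call was lost. Far fewer of all genes passed in them than in the full fit, so the loss is not particular to Aen. Probe set 1450506_a_at showed the same rise, 1.65 (adjusted p = 0.00844). Probe sets 1451186_at and 1437373_at, which read lower, gave 0.76 (adjusted p = 0.0795) and 0.43 (adjusted p = 0.247), so the 4 probe sets of Aen did not all pass. On 1437373_at the step was not alike, with 0.80 in WT and 0.06 in KO.

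Mdm2 stood 0.56 above its 0 min value at 30 min and 1.37 at 90 min in WT, while KO stood 0.49 above its start at 30 min and 0.41 at 90 min. As a mean over both genotypes the 90 min coefficient was 0.89 (SE 0.26, adjusted p = 0.0736), which did not pass. Without the KO array at 90 min it was 1.35 and passed (adjusted p = 0.0457). The second probe set read alike, with 7.42, 8.34 and 9.07 in WT and 7.53, 8.12 and 8.02 in KO.

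Pmaip1 differed most between the genotypes in its response. In WT it stood 1.62 above its start at 30 min and 0.25 at 90 min. In KO it stood 3.39 above at 30 min and 3.87 at 90 min, the latter 14.6-fold. The mean responses did not pass, with 2.50 at 30 min (SE 0.74, adjusted p = 0.459) and 2.06 at 90 min (SE 0.74, adjusted p = 0.122).

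The other 5 genes gave smaller serum coefficients at 90 min. Phlda3 had 0.38 (SE 0.28, adjusted p = 0.394), made of 0.91 in WT and -0.15 in KO. The coefficient of Bbc3 was -0.43 (adjusted p = 0.175), made of -0.71 in WT and -0.15 in KO. Perp, Ccng1 and Zmat3 had -0.36, -0.25 and -0.05, and none of the 3 passed.

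Set side by side, the responses of KO minus those of WT show which genes answered serum differently, from single arrays and with no test. At 90 min Pmaip1 answered by 3.62 more in KO, and Phlda3 by 1.06 less. Mdm2 answered by 0.96 less, and by 1.16 less on its second probe set. Ccng1 had -0.66, Bbc3 0.56, Perp -0.15, Aen 0.12 and Zmat3 -0.02. The other probe sets of Aen had 0.39, 0.29 and, on 1437373_at, -0.74. At least 1 in size was reached by 1 gene at 30 min, Pmaip1 with 1.77, where 1.64% of all genes reached it, 0.863% upwards and 0.779% downwards. At 90 min 1 gene reached it upwards and 1 downwards, where 6.44% of all genes did, 3.34% upwards and 3.1% downwards.

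In 10T1/2 cells the largest differences were in Mdm2, Ccng1 and Zmat3, which stood highest on the array with both treatments, while Bbc3 and Phlda3 stood lowest there. Perp read 2.77, 3.35, 2.78 and 2.42 on the control, MAL, knockdown and combined arrays, and Pmaip1 2.63, 2.88, 2.41 and 2.76. Both genes were below the array medians throughout, so neither was tested in these cells. The additive limma model of the 4 arrays has 1 residual degree of freedom. By it none of the 6 genes tested passed for MAL, where 0.0643% of all 12440 genes did, 8 in all, 0.0482% higher and 0.0161% lower. For the knockdown none of them passed either, and the share over all genes was 0%. At an unadjusted p under 0.05 there were 3432 genes for MAL, 2 of them from this set, and 3972 for the knockdown, 4 of them from this set.

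Mdm2 read 6.64 on the control array, 6.80 after MAL, 7.48 after the knockdown and 8.85 with both. The knockdown pairs were 0.84 without and 2.05 with MAL, for a coefficient of 1.45 (SE 0.33, adjusted p = 0.0837). The second probe set lay in the same order, with 4.23, 5.00, 5.79 and 7.19. With a variance estimated over all 10 arrays the coefficient of 1.45 passed (adjusted p = 0.0228). After quantile normalization a coefficient of 1.33 passed as well (adjusted p = 0.00533). These 2 settings let many more of all genes pass than the main fit, for the knockdown as for MAL, where 2236 and 2014 passed against 8. The same holds for the genes below.

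Ccng1 read 9.20, 9.63, 9.42 and 10.73 in the same order. Each treatment alone stood within 0.43 of the control, and both together 1.53 above it. The MAL coefficient was 0.87 (SE 0.27, adjusted p = 0.133) and that of the knockdown 0.66 (SE 0.27, adjusted p = 0.173). After quantile normalization that of MAL was 0.89 and passed (adjusted p = 0.0287). Its other probe sets read 7.57, 8.21, 7.81 and 8.58, and 6.82, 7.47, 7.06 and 8.58, again highest with both treatments.

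Zmat3 read 6.98, 6.52, 7.87 and 8.23. The 2 arrays with the knockdown were above the 2 without it. The knockdown coefficient was 1.30 (SE 0.26, adjusted p = 0.0768), from pairs of 0.89 without and 1.71 with MAL, and that of MAL was -0.05. It passed with a variance over all 10 arrays (adjusted p = 0.00886) and after quantile normalization (1.18, adjusted p = 0.00627).

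Bbc3 read 7.71, 6.98, 7.18 and 6.55, lowest with both treatments. Its MAL coefficient was -0.68 (SE 0.18, adjusted p = 0.11) and its knockdown coefficient -0.48 (SE 0.18, adjusted p = 0.155). That of MAL passed with a variance over all 10 arrays (adjusted p = 0.0412) and after quantile normalization (-0.73, adjusted p = 0.0453). Phlda3 read 11.52, 11.09, 10.96 and 10.56, with coefficients of -0.41 for MAL (adjusted p = 0.218) and -0.55 for the knockdown (adjusted p = 0.129). Aen was flat, at 8.19, 8.11, 8.24 and 8.19.

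**Figure D3:**
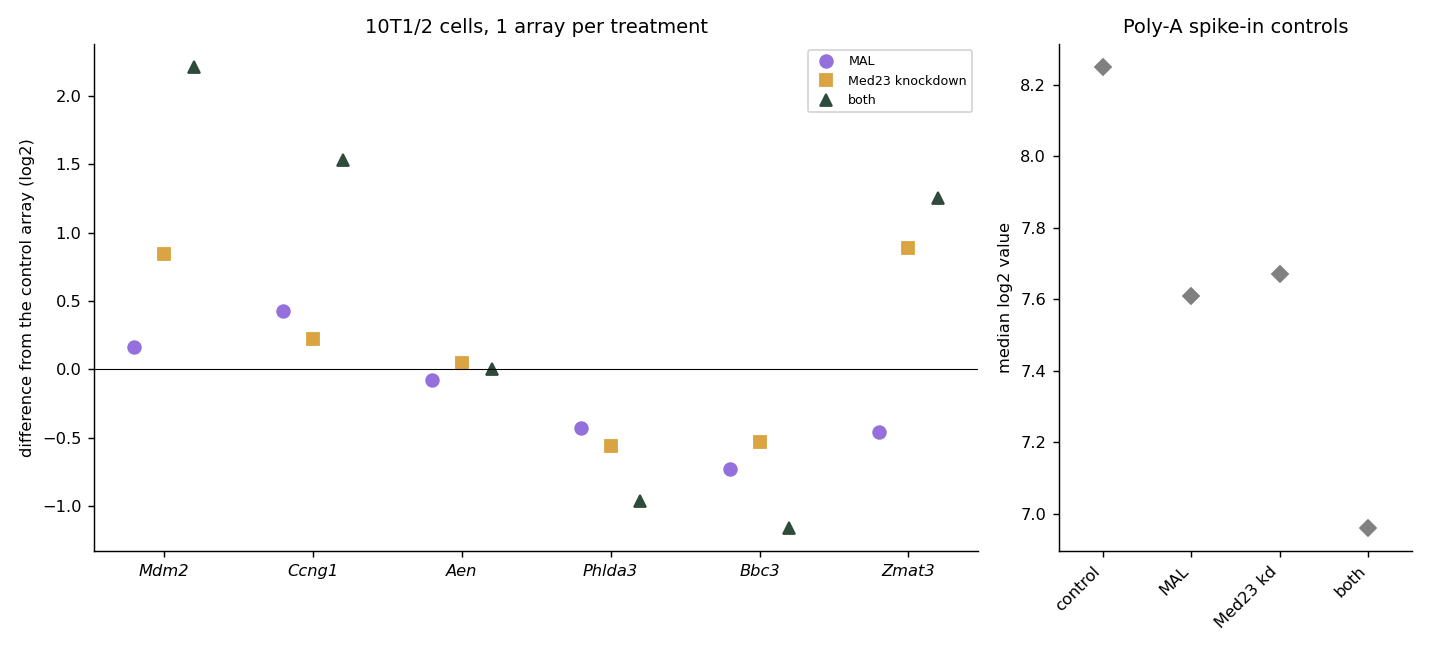
Left, the log2 difference of each treated 10T1/2 array from the control array (vertical axis) for the 6 genes tested there (horizontal axis), with MAL as circles, Med23 knockdown as squares and both as triangles. Right, the median log2 value of the poly-A spike-in probe sets on the same 4 arrays. Mdm2, Ccng1 and Zmat3 lie 2.21, 1.53 and 1.25 above the control with both treatments and Bbc3 1.16 below it, and the spike-in median runs from 8.25 on the control array to 6.96 with both.

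Against the control array alone, the combined treatment gave 2.21 for Mdm2 (4.63-fold), 1.53 for Ccng1 (2.89-fold) and 1.25 for Zmat3 (2.38-fold). It gave -1.16 for Bbc3 (2.23-fold lower), -0.96 for Phlda3 and 0.00 for Aen. Of the 6 genes, 3 were at least 1 higher and 1 at least 1 lower, where 29.5% of all genes differed that much, 17.9% higher and 11.5% lower. For Mdm2 the combined array stood 1.21 above the sum of both single treatments, for Ccng1 0.88 and for Zmat3 0.82. Other probe sets gave less in part, with 0.63 on the second of Mdm2, and 0.13 on 1450016_at and 0.87 on 1450017_at of Ccng1. Bbc3, Phlda3 and Aen were within 0.10 of that sum. Of the 6 genes, Mdm2 alone stood at least 1 from that sum, and on its brightest probe set only, where 7.18% of all genes did, 5.38% upwards and 1.8% downwards. The 24 poly-A spike-in probe sets had medians of 8.25, 7.61, 7.67 and 6.96 on these 4 arrays, so they differ with the treatments too, and their part in the result was not tested.

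Loss of Med23 in MEFs and its knockdown in 10T1/2 cells were set against each other in 1 limma fit over all 10 arrays. The difference between both effects was read for genes above the median on at least 1 array of each kind of cells, which were 6 of the 8. That of Perp and Pmaip1 is not given, because their 10T1/2 levels are all below the medians. It passed for 2 of the 6, Mdm2 and Zmat3, both lower for the knockout, where 31.7% of the 11230 genes read in this way passed, 14.7% higher and 16.9% lower. The count is near that background. For Mdm2 it was -1.83 (SE 0.42, adjusted p = 0.0148), since the effect was -0.38 in MEFs and 1.45 in 10T1/2. The second probe set of Mdm2 gave -2.26 (adjusted p = 0.00414). For Zmat3 it was -1.28 (SE 0.27, adjusted p = 0.0109), from 0.02 and 1.30. Without the MAL array Mdm2 (-1.22, adjusted p = 0.101) and Zmat3 (-0.87, adjusted p = 0.0517) no longer passed, and without the combined array neither did, with adjusted p of 0.101 and 0.0515.

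Ccng1 (0.07, SE 0.36), Bbc3 (0.00, SE 0.24), Aen (-0.25, SE 0.20) and Phlda3 (0.54, SE 0.33) did not pass. Phlda3 did without the WT or the KO array at 90 min (0.88 in both, adjusted p = 0.0243 and 0.0242). The signs of Ccng1 and Bbc3 were the same in both kinds of cells, with 0.73 and 0.66 for Ccng1 and -0.48 in both for Bbc3.

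Levels in the untreated 10T1/2 array and in WT MEFs at 0 min are given side by side only, because line, growth state and possibly normalization differ together. Phlda3 was 3.33 higher in 10T1/2, Bbc3 1.65 and Aen 1.49. Zmat3 was 1.32 lower in 10T1/2 and Mdm2 0.85. The 10T1/2 levels of Perp and Pmaip1 are below the median there, so with these raised to the median these 2 genes had differences of at most -3.86 and -0.42. The probe sets of a gene did not give the same size of difference. Mdm2 was 3.19 lower on its second probe set. Ccng1 was 0.11 higher on the first, and 0.89 and 1.29 lower on the others.

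**Figure D4:**
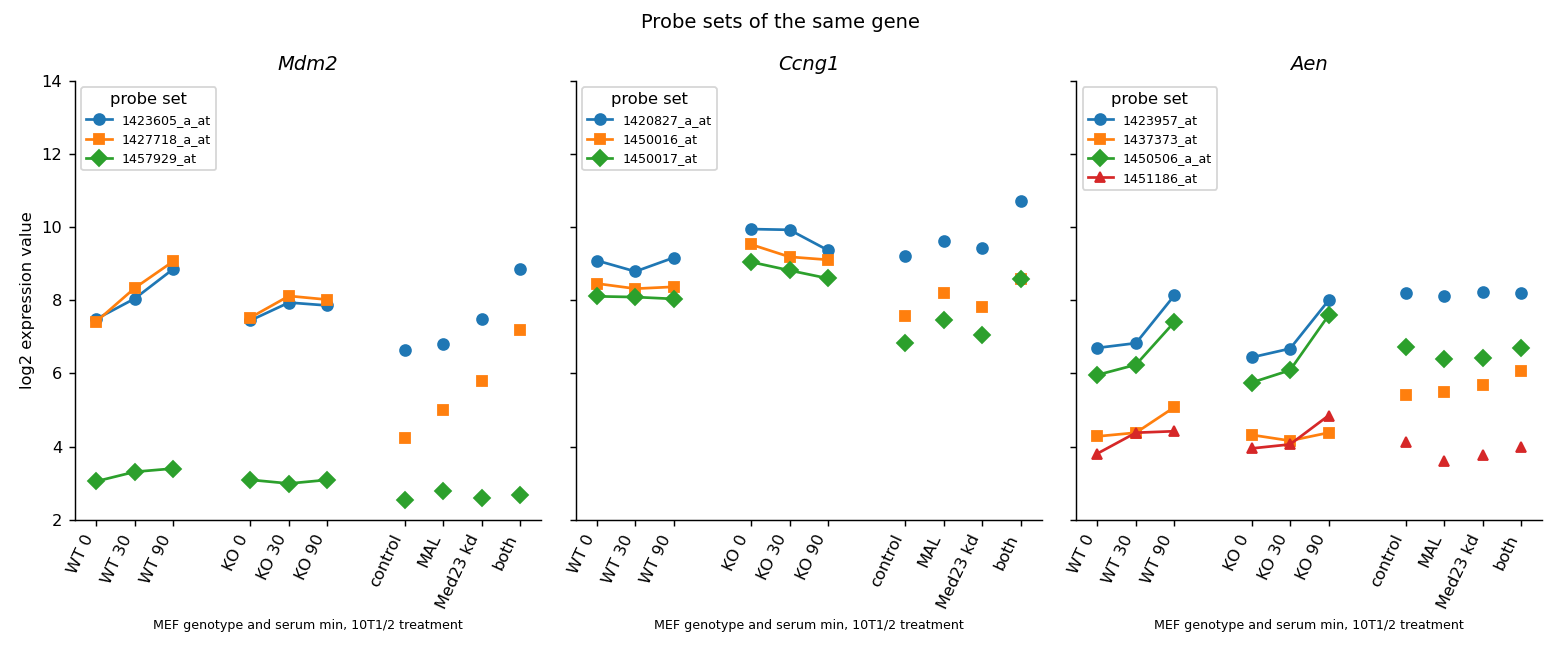
The log2 expression value (vertical axis) of every probe set of Mdm2, Ccng1 and Aen on the 10 arrays (horizontal axis), with lines joining the serum times of a genotype. For Mdm2 the first 2 probe sets run together in MEFs and lie apart in 10T1/2 cells, and the third stays between 2.54 and 3.40.

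Across the 10 arrays, which share 2 cell types and so are not independent points, the probe sets of a gene correlated as follows, as a description. The first 2 of Mdm2 had r = 0.79. For Ccng1 the 2 lesser probe sets had r = 0.95 with each other and 0.41 and 0.45 with the representative one. Aen 1423957_at had r = 0.73 with 1450506_a_at, 0.82 with 1437373_at and 0.08 with 1451186_at.

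The wider pathway was described by lists of p53 regulators, of further p53 targets and of BCL2 family genes. In KO against WT the growth and apoptosis targets had more lower than higher calls. Of 16 tested cell cycle and growth targets, 1 was higher and 7 lower, with a median coefficient of -0.57. Of 15 apoptosis targets 2 were higher and 7 lower, with a median of -0.27, against -0.02 for all genes. Of these, 4 calls in each list were lost when a serum time was left out. Of 15 targets in repair and metabolism, 4 were higher and 4 lower (median -0.07), with 7 of the 8 calls lost in that way. These counts stand beside 21.2% higher and 20.8% lower over all genes.

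Among the growth targets, Igfbp3, which binds insulin-like growth factors, read 7.65, 6.83 and 10.00 in WT and 2.63, 2.98 and 2.81 in KO. The KO levels are below the median, so it was at least 19.3-fold lower (coefficient -5.35, SE 0.57, adjusted p = 0.000835). Ddit4, whose protein restrains mTOR, fell by 2.73 (SE 0.27, adjusted p = 0.000636). Gadd45a, a stress sensor of the cell cycle, read 9.30, 6.43 and 6.02 in WT and 4.95, 4.57 and 4.83 in KO, and its coefficient of -2.47 was lost without the 30 min pair (adjusted p = 0.0744). The 1 higher gene was Ckap2, a spindle protein, by 1.01, also lost without the 30 min pair (adjusted p = 0.0679).

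Cdkn1a, which encodes the Cdk inhibitor p21, was looked at after its values were seen, as the best known target. It read 7.94, 9.10 and 9.62 in WT and 7.25, 8.87 and 8.86 in KO. Its KO coefficient was -0.56 (SE 0.15, adjusted p = 0.0278), lost when a serum time was left out (adjusted p up to 0.17). Its 90 min serum coefficient was 1.65 (SE 0.19, adjusted p = 0.0073), with adjusted p up to 0.128 when an array was left out. On the 10T1/2 arrays Cdkn1a stayed between 11.15 and 11.63.

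Among the apoptosis targets, the death receptor gene Fas read 8.99, 9.05 and 10.05 in WT and 7.32, 7.46 and 8.46 in KO (coefficient -1.62, SE 0.12, adjusted p = 0.000211). Bid, which links death receptors to mitochondria, fell by 1.17 (adjusted p = 0.000735). Tnfrsf23, a decoy receptor gene, was at least 2.27-fold lower, with all KO levels below the median. Trp53inp1, a cofactor in p53 stress responses, and Apaf1, the core of the apoptosome, were higher by 1.0 (adjusted p = 0.00393) and 0.93 (adjusted p = 0.00312).

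Of 20 regulators of p53 tested, 4 were higher and 3 lower (median 0.14), beside 21.2% higher and 20.8% lower over all genes, so the count is not above the background. Cdkn2a, which encodes ARF, an inhibitor of MDM2, and the Cdk inhibitor p16, read 10.97, 10.90 and 10.72 in WT and 3.01, 2.95 and 3.33 in KO. The KO levels are below the median, and so are the 4 of 10T1/2, between 2.65 and 3.12. It was at least 126-fold lower in KO (coefficient -7.77, SE 0.16, adjusted p = 3.19e-06). Atr, a kinase of DNA damage signalling, was 1.02 higher (adjusted p = 0.00363), Rpl11, a ribosomal protein that can bind MDM2, 0.87 (adjusted p = 0.00252), and Mdm4, a relative of MDM2, 0.67, the last lost without the 0 or the 30 min pair (adjusted p up to 0.0985). Hipk2, a kinase that acts on p53, was 1.11 lower (adjusted p = 0.00101), and Trp63, which encodes the related factor p63, 1.43 lower, lost without the 30 min pair (adjusted p = 0.068).

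Of the survival genes of the BCL2 family, Bcl2, Bcl2l1 and Mcl1 fell in KO and Bcl2l2 rose. Bcl2 read 6.80, 7.08 and 6.58 in WT and 4.43, 4.62 and 4.80 in KO (coefficient -2.20, SE 0.17, adjusted p = 0.000247). Bcl2l1 and Mcl1 had coefficients of -1.36 (adjusted p = 0.0219) and -1.06 (adjusted p = 0.00779), and Bcl2l2 had 0.69 (adjusted p = 0.00835). Each of these 3 calls was lost in at least 1 fit that left out a serum time, with adjusted p up to 0.0635, 0.0799 and 0.0562. In all, 2 of 9 tested genes of the family were higher and 4 lower, with a median of 0.02, beside the same 21.2% and 20.8% over all genes. Bok, a relative of BAX, was 1.17 higher, which was lost without the 30 min pair (adjusted p = 0.0663).

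At 90 min of serum, 5 of the 16 growth targets were higher and 2 lower, and 3 of the 15 apoptosis targets were higher and 1 lower. Of the 15 repair and metabolism targets 1 was higher and 3 lower, of the 20 regulators 0 and 2, and of the 9 BCL2 family genes 1 and 1. Over all genes 4.56% were higher and 8.95% lower. Plk3, a stress kinase gene, was 2.80 higher (adjusted p = 0.00571), and Ccng2, a relative of Ccng1, was 3.45 lower (adjusted p = 0.00196), reading 10.05, 9.67 and 6.67 in WT and 8.94, 8.93 and 5.42 in KO. Fas was 1.10 higher (adjusted p = 0.0104), and Bmf, a killer gene of the BCL2 family, 3.29 lower (adjusted p = 0.00196). All of these calls were lost in at least 1 of the fits that left out an array, that of Ccng2 without the KO array at 0 min alone (adjusted p = 0.0507). At 30 min the growth regulator Btg2 was the 1 listed gene that passed, with 5.29 (adjusted p = 0.0379), reading 8.11, 12.60 and 9.40 in WT and 6.09, 12.17 and 10.07 in KO. Btg2 kept this call only without the WT array at 0 min. At both serum times, every fit that left out an array let fewer of all genes pass than the full fit. A call lost there is therefore not particular to the gene. In 10T1/2 cells limma called no gene of these 5 lists for MAL or for the knockdown, where 0.0643% and 0% of all genes passed. At an unadjusted p under 0.05 a list held between 2 and 6 genes for MAL and between 4 and 9 for the knockdown. The lists had 10 to 18 tested genes there. Over all 12440 genes, 3432 were under 0.05 for MAL and 3972 for the knockdown.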

How the data were processed

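RNA of 10 cultures was labelled with biotin and hybridised to Affymetrix mouse arrays, per the labels' protocols, with 1 array per condition and groups taken from the labels. The values deposited by the authors are log2 expression values of 45101 probe sets, from 1.85 to 14.7. RMA and MAS5 are named per the submitters' processing notes, without role or version, and the sources used here do not say whether MEF and 10T1/2 arrays were normalized as 1 set. The log2 scale was read from the values. Arrays have no read depth, and their small number limits the precision.

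Symbols came from the platform annotation, updated through Entrez identifiers to the RefSeq table of GRCm38.p6. There were 64 controls, 34945 probe sets with 1 symbol (34741 matched by identifier), 932 with several, which were left out, and 9160 unnamed here. A gene was taken at its probe set with the highest mean. It was tested where it exceeded, on at least 1 array of the fit, the overall probe set median of those arrays, 3.90 in MEFs and 3.67 in 10T1/2 cells. limma 3.58.1 (lmFit, eBayes; R 4.3.3) fitted genotype and serum time on 6 arrays (2 residual and 4.18 prior degrees of freedom), MAL and knockdown on 4 arrays (1 and 3.83), and all terms on 10 arrays (3 and 4.83, 13034 genes, median 3.81). The difference between the knockout and the knockdown effect is read only for the 11230 genes tested in both smaller fits, a restriction set after the data were seen. p-values were two-sided, adjusted by Benjamini-Hochberg over all genes of a fit, with a threshold of 0.05. The scripts were tested on simulated data. A fold that rests on a level below the array median is given as "at least", with that level raised to the median, while the coefficient is as measured.

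The genes and lists were chosen with earlier results of these data known. From each list, up to 3 genes in each direction are named, those with the largest coefficients among genes that passed with 1 sign in every pair. A part of the rule that needed Trp53's own values could not be applied. Rpl5, Gls2, Fdxr and Bcl2a1a of the lists had no probe set of their own and are not analysed here, and a few other listed genes are not reported here. Alternatives changed the probe set rule, normalization, filter, prior variance, arrays in the fit and serum term, left out arrays, and, chosen after seeing the data, fitted every probe set on its own.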

Additional observations from a re-analysis of the deposited data

Results flagged for a closer look

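The KO coefficient in MEFs and the knockdown coefficient in 10T1/2 cells differed for 2 of the 6 genes tested in both kinds of cells. The test was limma's, of the difference itself over all 10 arrays. Of all genes read in this way 31.7% passed, and 16.9% were lower. In the MEFs genotype and culture cannot be told apart. Med23 itself was below the array medians in KO (3.30, 3.30 and 2.91) and still above them on the knockdown arrays (4.24 and 3.94). For Mdm2 the knockout effect minus the knockdown effect was -1.83 (SE 0.42, adjusted p = 0.0148), with a knockout effect of -0.38 and a knockdown effect of 1.45. For Zmat3 it was -1.28 (SE 0.27, adjusted p = 0.0109), with effects of 0.02 and 1.30. Neither passed without the MAL array (-1.22, adjusted p = 0.101, and -0.87, adjusted p = 0.0517) or without the combined array (adjusted p = 0.101 and 0.0515). Beside these stand spike-in medians of 8.25 and 7.61 on the 10T1/2 arrays without the knockdown and 7.67 and 6.96 on those with it, whose part in the differences was not tested.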

How the results depend on the processing

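The labels carry no replicate numbers, so no replicate block was fitted, and serum time, a term of the MEF fit, sets KO against WT within each time. Over the named comparisons of the 8 genes, 462 alternative values kept their direction and their side of the threshold, 14 gained a call, 18 lost one, 30 uncalled values turned their sign, and no called value reversed. The 10T1/2 fits that left out an array were run over the remaining 9 arrays of the whole series, since 3 arrays leave no residual degree of freedom, and the lone arrays are assumed to vary like the others.

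Genes passing for the knockout numbered 5018, but 2857 without the serum term, 8380 with every probe set on its own, and 2398 to 4891 when a serum time was left out. Of the 8 genes 4 passed, 2 without the serum term and 1 to 3 when a time was left out. For serum at 30 min the count was 30, with 13 for the mean of a gene's probe sets, 59 with an intensity trend, 58 in the fit over all 10 arrays, 46 with every probe set and 0 to 26 when an array was left out. At 90 min it was 1612, and 0 to 869 when an array was left out, with 0 to 2 of the 8 genes against 1.

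For MAL 8 genes passed, with 587 for the mean of probe sets, 2014 after quantile normalization, 0 with no filter, 542 with the trend, 2236 in the fit over all 10 arrays, 0 with every probe set and 480 to 1253 when an array was left out. Of the 6 genes tested 0 passed, 2 after quantile normalization and 1 in the fit over 10 arrays. For the knockdown 0 genes passed, with 340, 2472, 599 and 2658 for the mean of probe sets, quantile normalization, the trend and the fit over 10 arrays, and 176 to 1729 when an array was left out. Of this set 0 passed, with 2 after quantile normalization, 2 in the fit over 10 arrays and 0 to 3 when an array was left out. Mdm2 and Zmat3 then passed without the control array (2.05, adjusted p = 0.0226, and 1.71, adjusted p = 0.00916) and not without the MAL array (0.84 and 0.89). The knockout effect minus the knockdown effect passed for 3814 genes, 6022 with every probe set, and 2253 to 3485 when an array was left out, with 0 to 3 of the 6 genes read against 2.

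Coefficients near the array median, as for Pmaip1 in WT MEFs, are limited by how far a signal stands above background, which was not measured here.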

Other observations

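Some other genes of the pathway, picked after their values were seen, also read highest on the 10T1/2 array with both treatments, as Mdm2 did. Mdm4, which encodes the partner of MDM2 in holding p53 down, read 4.13 on the control array, 4.53 after MAL, 4.86 after the knockdown and 5.83 with both. Bcl2, a survival gene, read 4.40, 4.58, 4.98 and 6.55. Hipk2, a kinase that acts on p53, read 6.01, 5.57, 7.43 and 8.87. None of the 3 passed for MAL, where 0.0643% of all genes did, or for the knockdown, where 0% did. With so few calls among all genes, a missing call is not particular to these 3. Further genes of the same lists read lowest on the combined array, among them Kat5 (8.32), Wrap53 (5.16), Bcl2l1 (7.36), Bad (8.58) and Bak1 (7.67). Over all genes, 17.9% stood at least 1 above the control array with both treatments and 11.5% at least 1 below it. The difference between the knockout and the knockdown effect was -3.47 for Hipk2 (SE 0.48) and -3.48 for Bcl2 (SE 0.41). These genes were picked as high on the combined array, which enters the knockdown effect, so negative differences were favoured in advance. No p-value is therefore given for them. Of the 18 p53 regulators tested in both kinds of cells, 3 were higher and 6 lower for that difference, with a median of -0.39 against 0.00 for all genes read in this way, of which 14.7% were higher and 16.9% lower.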
